A study of Mus musculus with 15 samples.

Results

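Atrial muscle is represented by 6 genes of the deposited table of 56980 genes: Myl4, Myl7, Sln, Nppa, Mybphl and Sbk3. The members were selected on their measured TPM in these samples, which were known to differ between the heart groups and to vary between vehicle hearts, so the heart values of the members are a description with no test. Mice of the DBA/2J-mdx genotype, which lack dystrophin and develop a severe muscular dystrophy, received the senolytic pair dasatinib and quercetin (D + Q) or vehicle, and RNA was measured in tibialis anterior (TA) muscle and in heart. All 15 libraries share this genotype, and none came from a healthy strain.

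There were 4 TA libraries with D + Q, all labelled male, and 4 with vehicle, of which replicates 1 and 3 are labelled male and replicates 2 and 4 female. These mice were dosed 2 times per week for 2 months, from 3 to 5 months of age. There were 3 heart libraries with D + Q, labelled female, female and male, and 4 with vehicle, with replicates 1 and 4 labelled male and replicates 2 and 3 female. These mice were dosed 2 times per week for 4 months, from 12 to 16 months of age. Tissue and age therefore cannot be told apart in any comparison of TA with heart. The sources name heart tissue for RNA and do not say which chambers were taken, while the ventricles are named for histology. Levels are in TPM, a level scaled by transcript length whose total was 1000000 for each library. The depth behind a level is therefore unknown. The labels give separate samples and nothing more on their origin, so p-values measure the spread between these samples, which may be technical.

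The upper and lower chambers of the heart build their sarcomeres from partly different proteins. Myl4 and Myl7 encode the essential and regulatory myosin light chains of atrial muscle, whose ventricular counterparts are Myl3 and Myl2. Myl4 is also made in embryonic and regenerating skeletal muscle. Sln encodes sarcolipin, a small membrane peptide that binds and slows the sarcoplasmic reticulum calcium pump, and Nppa encodes the precursor of atrial natriuretic peptide, a hormone stored in atrial granules. Mybphl is a relative of the myosin-binding proteins found in atrial muscle, and Sbk3 belongs to a small family of kinases with a domain that binds SH3 domains.

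In GRCm39 (GENCODE M39), Myl4 lies on chromosome 11 from 104440903 to 104486603 on the plus strand and Myl7 on the same chromosome from 5845449 to 5848792 on the minus strand. Sln lies on chromosome 9 from 53742537 to 53761846, Nppa on chromosome 4 from 148085091 to 148086583 and Mybphl on chromosome 3 from 108272199 to 108287373, all on the plus strand. Sbk3 lies on chromosome 7 from 4968259 to 4974878 on the minus strand, and its relative Sbk2 begins 848 bases away on the same strand. Of the stretches of 31 bases in the Nppa transcripts, 46.8% were shared with Gm13054, an antisense gene, and of those in Mybphl 28.6% were shared with the antisense gene Gm12522. Neither partner exceeded 0.696 TPM in any library. Whether the quantification used strand is not given in the sources used here, so reads of either pair may not have been told apart. Shared stretches made up 6.72% of Myl4, 1.51% of Myl7, 0.440% of Sbk3 and 0% of Sln.

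Promoter sequences were held by RefSeq (GRCm38.p6) for 5 of the 6 members. Those of Myl7, Mybphl and Nppa are printed because Myl7 and Mybphl had D + Q levels far under their vehicle levels while the gap was smaller for Nppa. Each line gives the 250 bases before the transcript start, 5′ to 3′, with motif matches in capitals.
Myl7, chr11:5898783-5899032, minus strand: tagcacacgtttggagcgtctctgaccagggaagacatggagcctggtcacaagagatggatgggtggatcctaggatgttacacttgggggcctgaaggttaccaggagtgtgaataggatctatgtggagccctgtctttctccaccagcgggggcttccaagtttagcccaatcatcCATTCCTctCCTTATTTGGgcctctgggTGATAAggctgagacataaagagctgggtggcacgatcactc
Nppa, chr4:148000472-148000721, plus strand: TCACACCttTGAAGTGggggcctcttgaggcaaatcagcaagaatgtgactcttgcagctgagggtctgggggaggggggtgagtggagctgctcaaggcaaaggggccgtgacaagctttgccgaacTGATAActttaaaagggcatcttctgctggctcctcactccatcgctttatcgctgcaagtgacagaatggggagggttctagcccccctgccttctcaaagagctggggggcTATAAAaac
Mybphl, chr3:108364661-108364910, plus strand: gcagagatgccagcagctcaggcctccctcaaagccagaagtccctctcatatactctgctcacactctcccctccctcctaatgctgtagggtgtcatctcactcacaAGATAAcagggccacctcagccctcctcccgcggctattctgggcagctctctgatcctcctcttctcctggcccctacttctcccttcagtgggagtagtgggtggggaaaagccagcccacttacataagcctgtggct
Both strands of the window from 250 bases before to 50 bases after the start were searched, and no 2 matches overlapped in these windows. The Myl7 window held an M-CAT motif (CATTCCT, in 5.38% of the 32544 promoters searched), a CArG box (1.64%) and a GATA core (TGATAA, 8.91%). The Nppa window held a T-box motif (GGTGTGA, 3.96%), an NKX motif (CACTTNA, 11.5%), the same GATA core and a TATA motif (TATAAA, 13.6%). The Mybphl window held the GATA motif AGATAA, which 11.2% of promoters hold. The windows of Myl4 and Sbk3 held none of the 8 motifs searched, the last of which was the MEF2 motif (3.70%). Whether the RefSeq start of Myl4 is the one used in heart is not known from the sources. A match describes letters in a window and not a bound site.

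Before the results, 2 heart libraries need a remark. D + Q replicate 3 is labelled male, yet it had 47.2 TPM of Xist, the transcript of the inactive X chromosome, and at most 0.0279 TPM of the Y-linked genes read, so it is called the D + Q library labelled male. D + Q replicate 2 held transcripts of fast skeletal muscle, with 10.2 TPM of Myh4 and 21.5 TPM of Tnnt3, where the other 6 hearts had at most 0.330 and 1.77 TPM. The heart libraries otherwise carried cardiac muscle RNA, with Myh6 between 4002 and 5741 TPM. Between 22579 and 22818 genes were above 0 in D + Q hearts and between 24089 and 25378 in vehicle hearts.

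The atrial light chains were abundant in vehicle hearts and scarce in D + Q hearts. Myl7, the regulatory chain, was at 94.1, 730.1, 541 and 282.5 TPM in vehicle replicates 1 to 4 and at 3.995, 4.54 and 3.46 TPM with D + Q. The lowest vehicle heart was 20.7 times as high as the highest D + Q heart, and the means were 412 ± 280.2 TPM (SD, n = 4) and 4.00 ± 0.542 TPM (SD, n = 3). Myl4, the essential chain, was at 72.0, 515, 355 and 205 TPM with vehicle and at 3.96, 4.62 and 2.05 TPM with D + Q, and here the lowest vehicle heart was 15.6 times as high as the highest D + Q heart. In bulk RNA, fewer atrial cells and less RNA per atrial cell cannot be told apart.

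Their ventricular counterparts had far higher levels and differed far less. Myl2 was at 7254, 6000, 7536 and 7183 TPM in vehicle hearts and at 9087, 8684 and 8699 TPM in D + Q hearts. Myl3 was at 2850, 2381, 2908 and 2876 TPM with vehicle and at 3398, 3152 and 3268 TPM with D + Q. For both genes every D + Q heart was above every vehicle heart, as held for 9.63% of all genes tested. The log2 fold change of Myl2 was 0.35 (standard error 0.10) and that of Myl3 0.27 (standard error 0.09), and neither was called, with limma adjusted p-values of 0.144 and 0.183. Per transcript, Myl7 stood at 1.298%, 12.2%, 7.18% and 3.93% of Myl2 in the vehicle hearts and at 0.0398% to 0.0523% in the D + Q hearts. Myl4 stood at 2.53%, 21.6%, 12.2% and 7.14% of Myl3 with vehicle and at 0.0628% to 0.147% with D + Q. The ratio of Myl3 to Myl2 stayed between 0.363 and 0.4004 in all 7 hearts.

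Sln, the calcium pump regulator, was at 7.86, 60.0, 40.5 and 22.0 TPM in vehicle hearts and at 0.416, 0.176 and 0.0408 TPM in D + Q hearts. The groups did not overlap, and all 3 D + Q levels were under 0.5 TPM, where the unknown depth leaves differences between libraries uncertain. Pln, which encodes phospholamban, the pump regulator of the ventricle, was at 2696 to 2923 TPM with vehicle and 3520 to 3691 TPM with D + Q, and the change on the log2 scale was 0.36 (standard error 0.06, adjusted p = 0.0812 by limma). Of the 5 genes listed as the pump and its regulators other than Sln, 0 were called in either direction by limma, while 3 were higher and 1 was lower at an unadjusted p-value under 0.05. Among all 16132 genes tested, 1557 were higher and 1289 lower at that level.

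Mybphl, the myosin-binding relative, was at 4.52, 59.8, 30.05 and 16.9 TPM in vehicle hearts and at 0.595, 0.183 and 0.0424 TPM in D + Q hearts. Mybpc3, a family member that encodes cardiac myosin-binding protein C of atrial and ventricular muscle, lay between 559 and 629 TPM with vehicle and between 621 and 698 TPM with D + Q, so those groups overlapped. Sbk3 was at 4.68, 30.6, 24.4 and 15.7 TPM with vehicle and at 1.19, 1.05 and 1.05 TPM with D + Q. The lowest vehicle heart was 7.61 times as high as the highest D + Q heart for Mybphl and 3.92 times as high for Sbk3, or 28.5 and 13.2 times without vehicle replicate 1. In mean TPM, Mybphl was at 27.8 ± 23.7 (SD, n = 4) against 0.273 ± 0.287 (SD, n = 3) and Sbk3 at 18.8 ± 11.2 against 1.1 ± 0.0805. Sbk1, a further kinase of that family, had higher levels in every D + Q heart, 22.1 to 27.0 TPM, than in any vehicle heart, 13.7 to 20.3 TPM, and was not called (log2 fold change 0.53, adjusted p = 0.131 by limma).

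Nppa differed from the other members in size. It was at 688, 2956, 1268 and 573.5 TPM in vehicle hearts and at 373, 418 and 421 TPM in D + Q hearts. The groups did not overlap, but the lowest vehicle heart was only 1.36 times as high as the highest D + Q heart, and the ratio of the medians was 2.34, against ratios between 19.0 for Sbk3 and 177 for Sln among the other 5. Nppb, which encodes the related B-type peptide, lay between 118 and 206 TPM with vehicle and between 122 and 209 TPM with D + Q, with a log2 fold change of -0.24 (standard error 0.26, adjusted p = 0.690 by limma).

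**Figure D1:**
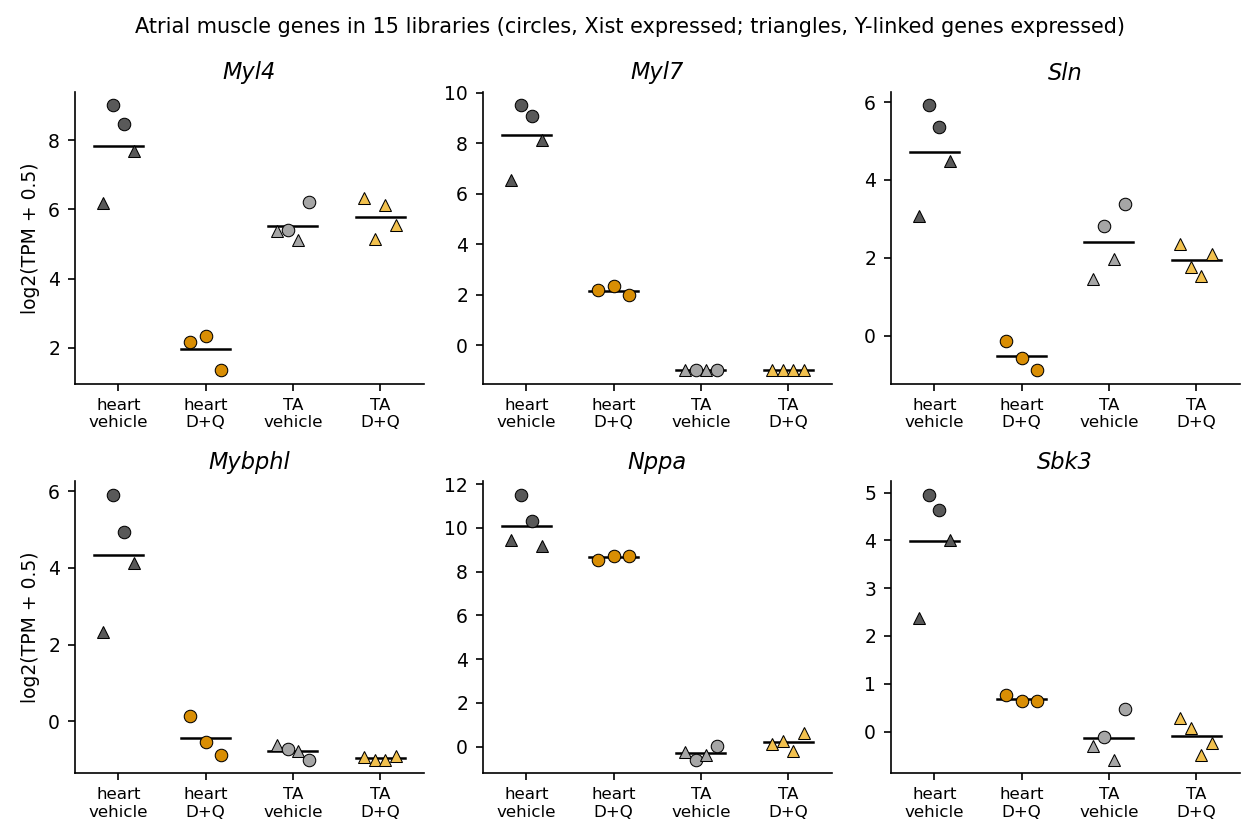
Levels of the 6 members on the log2(TPM + 0.5) scale in vehicle and D + Q hearts and TA muscles, 1 point per library, with the group mean as a bar; circles are libraries that express Xist and triangles those that express Y-linked genes. All 3 D + Q hearts lie below all 4 vehicle hearts in every panel, and in TA the groups overlap.

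Counted with limma on the whole table, 5 of the 6 members, all but Nppa, were called lower in D + Q hearts, and 0.211% of the 16132 genes tested were called lower. All 6 had every D + Q heart below every vehicle heart, as did 5.57% of all genes tested. These counts follow from how the members were chosen, and nothing is read from them. All 6 passed the filter of 0.5 TPM in at least 3 hearts, which for Sln and Mybphl was met in the vehicle group and, for Mybphl, in D + Q replicate 1. The mean log2(TPM + 0.5) of the 6 members was 4.99, 7.81, 7.13 and 6.27 in vehicle replicates 1 to 4 and 2.27, 2.15 and 1.82 in D + Q replicates 1 to 3, a difference of -4.47. By gene, the difference of the mean log2 values was -5.88 for Myl4, -6.16 for Myl7, -5.23 for Sln, -1.45 for Nppa, -4.76 for Mybphl and -3.32 for Sbk3. Leaving out any 1 heart kept it between -6.75 and -5.77 for Myl7, between -5.42 and -4.23 for Mybphl and between -1.76 and -0.98 for Nppa. Without vehicle replicate 1, the lowest vehicle heart for 5 of the members, the remaining gap between groups rose to 62.2-fold for Myl7, 52.9-fold for Sln, 44.4-fold for Myl4, 28.5-fold for Mybphl and 13.2-fold for Sbk3, and without D + Q replicate 1 it rose to 44.5-fold for Sln and 24.7-fold for Mybphl. Without the D + Q library labelled male the difference was -4.34, and without the D + Q library that held skeletal transcripts it was -4.50. Among the 5 hearts that express Xist, 2 with vehicle and 3 with D + Q, the lowest vehicle heart exceeded the highest D + Q heart 119 times for Myl7, 76.8 times for Myl4 and 3.01 times for Nppa.

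The members also varied widely among vehicle hearts. The standard deviation of log2(TPM + 0.5) over the 4 vehicle hearts was 1.23 for Myl4, 1.31 for Myl7, 1.24 for Sln, 1.07 for Nppa, 1.52 for Mybphl and 1.15 for Sbk3. It was 0.15 for Myl2, 0.14 for Myl3 and 0.16 for the median tested gene, and between 0.372% and 0.893% of tested genes varied more than a given member. In D + Q hearts the same quantity was 0.53 for Myl4, 0.17 for Myl7, 0.10 for Nppa and 0.07 for Sbk3.

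The order of the vehicle hearts was the same for Myl4, Myl7, Sln, Mybphl and Sbk3: replicate 2 was highest, then 3, then 4, then 1. Nppa had replicates 2 and 3 on top as well, but replicate 1 lay above replicate 4. The vehicle hearts labelled female, replicates 2 and 3, were above both labelled male for all 6 members, while Myl2 and Myl3 had their lowest vehicle level in replicate 2. The part of sex in this spread was not tested, since 2 hearts against 2 cannot give an exact permutation p below 0.333. Across all tested genes, 11.4% had the vehicle order of Myl7, and this order was examined after the member values had been seen.

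**Figure D2:**
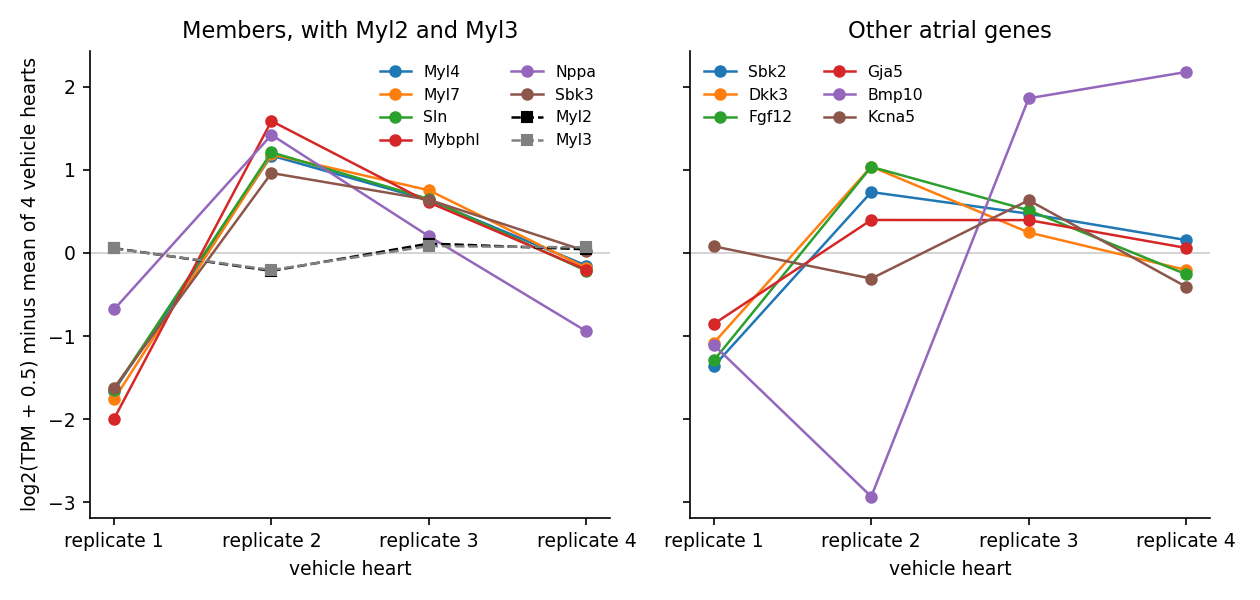
Difference from the mean of the 4 vehicle hearts, in log2(TPM + 0.5), for the 6 members with Myl2 and Myl3 (left) and for 6 other atrial genes (right); a line joins the points of 1 gene and replicates have no order. All 6 members are above the mean in replicates 2 and 3, Myl2 and Myl3 stay near 0, and Bmp10 is lowest in the heart where the members are highest.

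Within vehicle hearts Myl4, Sln and Sbk3 kept nearly fixed proportions to Myl7, while Mybphl and Nppa varied more. Myl4 stood at 0.765, 0.705, 0.656 and 0.726 times Myl7 in replicates 1 to 4, while Myl7 itself ranged 7.76-fold. Sln stood at 0.0748 to 0.0835 times Myl7, a range of 1.12-fold, and Sbk3 at 0.0419 to 0.0555 times Myl7. Mybphl lay between 0.0480 and 0.0818 times Myl7, a range of 1.70-fold, and Nppa ranged 3.60-fold, at 7.31, 4.05, 2.34 and 2.03 times Myl7.

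In D + Q hearts these proportions differed for Nppa and Sbk3. Nppa stood at 93.5, 92.0 and 122 times Myl7, and Sbk3 at 0.299, 0.232 and 0.305 times Myl7, both above all vehicle hearts. The Sbk3 ratios with D + Q rest on levels of 1.05 to 1.19 TPM, with an unknown number of reads behind them. Myl4 stood at 0.992, 1.02 and 0.593 times Myl7, a range that spans the vehicle hearts. The ratios of Sln and Mybphl in D + Q hearts rest on levels near 0 and are shown without a comparison. Over the 7 hearts, Pearson's r on the log2(TPM + 0.5) scale between pairs of members other than Nppa was between 0.983 and 0.998, and between Nppa and the others it was between 0.83 and 0.87. These hearts share the 2 groups that chose the members, so r is a description.

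**Figure D3:**
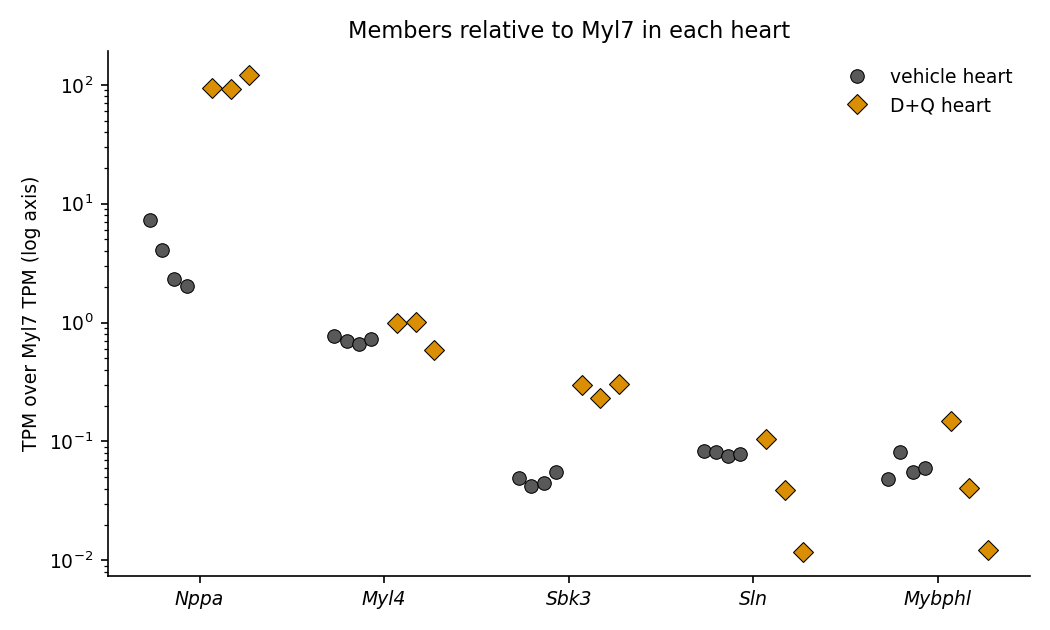
TPM of 5 members divided by TPM of Myl7 in the same heart, on a log axis, with vehicle hearts as circles and D + Q hearts as diamonds. The ratios of Myl4, Sbk3 and Sln lie close together in vehicle hearts, and those of Nppa and Sbk3 are higher in all 3 D + Q hearts.

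A wider list of 16 atrial genes that are no members was read from the same fit. This list was chosen with earlier results of these data known. All counts over it are therefore a description and no independent support. In D + Q hearts 1 of them was called lower and 0 were called higher by limma. At an unadjusted p-value under 0.05, 10 were lower and 0 were higher. Over the whole fit of 16132 genes, 1289 were lower and 1557 higher at that level, or 17.6% in either direction. Dkk3, a secreted protein of the Dickkopf family, was the called gene. It was at 7.08, 32.5, 18.6 and 13.4 TPM with vehicle and at 2.80, 3.43 and 2.30 TPM with D + Q, a log2 fold change of -2.43 (standard error 0.31, adjusted p = 0.0370 by limma). That call was not held in 5 of the 7 fits that left out 1 heart. The adjusted p-value of Dkk3 was 0.0896 without vehicle replicate 2, 0.101 without vehicle replicate 4, and 0.112, 0.119 and 0.142 without D + Q replicates 1, 2 and 3.

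Of the 16 genes, 14 had a negative log2 fold change, beside 50.5% of all genes tested, and the median was -0.50, beside 0 over all genes. The other 2 were Kcna5 and Kcnj5. Kcna5 was at 8.39, 6.29, 12.6 and 5.84 TPM with vehicle and at 11.0, 12.6 and 11.8 TPM with D + Q (log2 fold change 0.51, standard error 0.24, adjusted p = 0.320 by limma). Kcnj5 had a log2 fold change of 0.01 (standard error 0.08, adjusted p = 0.955 by limma). In 4 of them, Dkk3, Stard10, Cacna1d and Fgf12, every D + Q heart was below every vehicle heart, as in 5.57% of all genes tested. Fgf12, an intracellular relative of the fibroblast growth factors that binds sodium channels, was at 2.20, 13.1, 8.95 and 5.04 TPM with vehicle and at 1.06, 0.785 and 0.914 TPM with D + Q, with a log2 fold change of -2.38 (standard error 0.38, adjusted p = 0.0783 by limma). Stard10, a lipid transfer protein gene, had a log2 fold change of -0.90 (standard error 0.18, adjusted p = 0.0977 by limma). Gja5, which encodes connexin 40 of atrial and conduction cells, was at 2.66, 7.03, 7.02 and 5.47 TPM with vehicle and at 2.74, 2.54 and 2.94 TPM with D + Q, so vehicle replicate 1 lay within the D + Q range. The vehicle order of Myl7, examined after the member values had been seen, was shared by 10 of the 16 genes, or 62.5%, beside 11.4% of all genes tested.

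Sbk2, the neighbour and relative of Sbk3, was at 3.48, 16.5, 13.7 and 10.9 TPM in vehicle hearts and at 4.06, 2.34 and 3.17 TPM in D + Q hearts. The groups overlapped through vehicle replicate 1, and the log2 fold change was -1.62 (standard error 0.42, adjusted p = 0.128 by limma). Bmp10, a growth factor made by atrial muscle, did not follow the members. It was at 1.64, 0.106, 16.3 and 20.4 TPM in vehicle replicates 1 to 4, lowest in the heart where all 6 members were highest, and at 0.136, 0.207 and 0.0854 TPM in D + Q hearts. Its log2 fold change was -2.76 (standard error 1.21, adjusted p = 0.294 by limma).

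**Figure D4:**
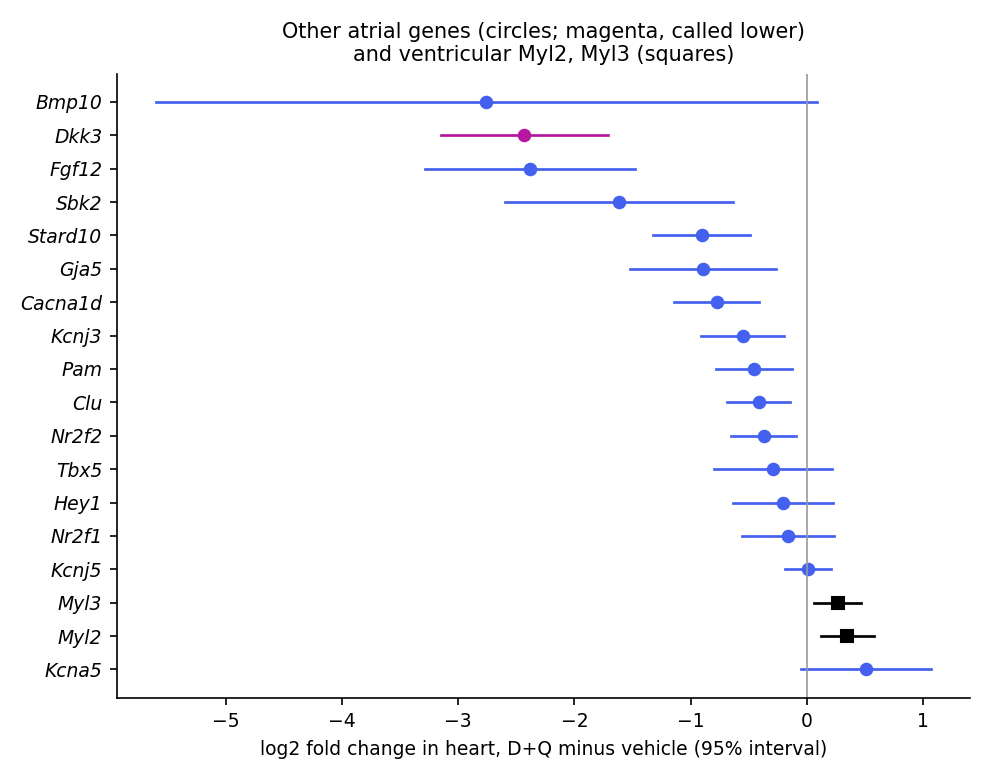
Log2 fold change in heart, D + Q minus vehicle, with its 95% interval from limma, for 16 atrial genes that are no members (circles) and for Myl2 and Myl3 (squares). Of the 16 genes 14 lie left of 0, Dkk3 (magenta) alone was called lower, while Myl2 and Myl3 lie right of 0.

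Genes of other cells and chambers were read from lists beside the members, also chosen with earlier results known. Of 10 tested ventricular genes, 0 were called in either direction by limma and 7 were higher at an unadjusted p-value under 0.05, with 6 showing every D + Q heart above every vehicle heart and a median log2 fold change of 0.26. Over all 16132 genes tested, 1557 were higher at that unadjusted level and 9.63% had every D + Q heart above every vehicle heart. Of 10 genes shared by cardiac muscle cells, 0 were called by limma, 6 were higher by the unadjusted p-value under 0.05, with a median of 0.24. The summed level of the cardiac muscle list was 16250 to 17660 TPM with vehicle and 19410 to 20890 TPM with D + Q.

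Genes of the mesothelium, the cell layer that covers the heart, had negative log2 fold changes in 6 of 6 cases. Of these genes 0 were called by limma, all 6 had an unadjusted p-value under 0.05, 3 had every D + Q heart below every vehicle heart, and the summed level was 19.1 to 27.2 TPM with vehicle and 13.2 to 16.4 TPM with D + Q. Among all 16132 genes tested, 50.5% had a negative log2 fold change and 5.57% had every D + Q heart below every vehicle heart. At the unadjusted level, 1289 of them were lower and 1557 higher. Upk3b, a mesothelial surface protein gene, was at 4.66, 6.36, 7.52 and 6.53 TPM with vehicle and at 2.54, 3.61 and 2.82 TPM with D + Q (log2 fold change -0.99, standard error 0.16, adjusted p = 0.0810 by limma). Of 6 tested sinoatrial genes, 0 were called by limma, 2 were higher and 0 were lower at an unadjusted p-value under 0.05, while Isl1, a defining gene, did not exceed 0.0416 TPM in any heart. Of 6 smooth muscle genes 0 were called by limma and 3 were lower at an unadjusted p-value under 0.05, with summed levels of 243 to 419 TPM with vehicle and 278 to 320 TPM with D + Q. Scgb1a1, a gene of the airway lining, was listed at 0 in the 4 vehicle hearts and was at 1.65, 10.4 and 2.24 TPM in the D + Q hearts. It alone passed the filter among 5 listed lung genes. Sftpc and Sftpa1 were likewise listed at 0 in the 4 vehicle hearts and reached at most 0.167 and 0.178 TPM in D + Q hearts, levels at which few reads decide a value. Sftpb was highest in a vehicle heart, at 0.801 TPM. Ager was at 0.190 to 0.325 TPM with vehicle and at 0.0435 to 0.150 TPM with D + Q. The part that the cell make-up of the samples plays in the levels of the members was not tested.

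Of 6 tested genes of the natriuretic peptide pathway other than Nppa, 0 were called in either direction by limma, with 2 higher and 1 lower at an unadjusted p-value under 0.05. Among all 16132 genes tested, 1557 were higher and 1289 lower at that level. Npr3, the clearance receptor of the peptides, was at 9.39, 16.9, 12.2 and 11.6 TPM with vehicle and at 6.77, 7.68 and 7.86 TPM with D + Q (log2 fold change -0.73, standard error 0.17, adjusted p = 0.112 by limma). Corin, the protease that cuts the Nppa precursor, was at 21.5 to 35.8 TPM with vehicle and at 37.4 to 45.4 TPM with D + Q (log2 fold change 0.46, standard error 0.10, adjusted p = 0.109 by limma).

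The genes most like the members over the 7 hearts were sought among the 230 tested genes with a standard deviation of at least 1, and 13 of them had a Pearson's r of at least 0.9 with the mean of the members. The 5 with the highest r were the processed pseudogene Gm43802 (0.993), Dkk3 (0.987), Fgf12 (0.978), the unnamed gene ENSMUSG00000121145 (0.977) and Mlana (0.965). ENSMUSG00000121145 was at 3.87, 44.3, 31.9 and 16.7 TPM in vehicle hearts and at 1.33, 1.89 and 0.686 TPM in D + Q hearts, the vehicle order of Myl7. Ppp1r1b, Tmem163, Cd226, Gm23734 and Dbp followed with r between 0.934 and 0.958. Gm43802 (0.764 to 2.48 TPM with vehicle) and Gm23734 (4.11 to 8.11 TPM) were listed at 0 in every D + Q heart, and Tmem163 reached at most 0.0711 TPM there. The r values of those genes thus rest partly on levels at or near 0. Dbp, a clock output factor, was at 53.9, 77.3, 50.15 and 71.4 TPM with vehicle and at 15.4, 8.42 and 12.8 TPM with D + Q, so it shared the gap between groups and not the order within vehicle hearts. These r values are a description, since the hearts fall into the 2 groups on which the members were chosen.

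TA levels were among the results known when the members and lists were chosen, so the TA tests are not independent of that knowledge. Myl7 was listed at 0 in all 8 TA libraries, and Mybphl did not exceed 0.151 TPM in any. Myl4, Sln, Nppa and Sbk3 passed the filter of 0.5 TPM in at least 3 libraries, so 4 of the 6 members were tested.

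Myl4 was at 40.6, 42.0, 34.4 and 74.1 TPM in vehicle TA replicates 1 to 4 and at 79.6, 34.6, 69.2 and 46.6 TPM with D + Q (1 to 4 as well). The groups overlapped, and the log2 fold change was 0.26 (standard error 0.30, adjusted p = 0.999 by limma). Sln was at 2.24, 6.53, 3.45 and 9.86 TPM with vehicle and at 4.65, 2.90, 2.40 and 3.77 TPM with D + Q, where the 2 highest libraries were the vehicle females. Its log2 fold change was -0.49 (standard error 0.40, adjusted p = 0.999 by limma) and turned to 0.22 with labelled sex as covariate and to 0.24 without D + Q replicate 3.

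Nppa was at 0.343, 0.167, 0.264 and 0.523 TPM in vehicle TA and at 0.586, 0.709, 0.384 and 1.03 TPM in D + Q TA, levels at which few reads decide a value. The log2 fold change was 0.48 (standard error 0.25, adjusted p = 0.999 by limma). Sbk3 lay between 0.168 and 0.884 TPM with vehicle and between 0.217 and 0.726 TPM with D + Q, with a log2 fold change of 0.04 (standard error 0.29, adjusted p = 0.999 by limma) that turned to -0.02 without vehicle replicate 1 and to -0.21 without vehicle replicate 3.

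None of the 4 was called, 1 of them had a negative log2 fold change beside 66.4% of all genes tested, and none had every D + Q library below every vehicle library, as 1.25% of genes did. In all, 0% of the 16298 genes tested were called in either direction by limma, while 488 genes (2.99%) had an unadjusted p-value under 0.05, none of them a member. Two-sided exact permutation tests of 4 libraries against 4, run for the 5 members above 0, gave p = 0.457 for Myl4, 0.371 for Sln, 0.0571 for Nppa, 0.143 for Mybphl and 0.857 for Sbk3, where the smallest p possible is 0.0286. The 95% limma intervals of the log2 fold change ran from -0.41 to 0.94 for Myl4, from -1.37 to 0.39 for Sln, from -0.07 to 1.04 for Nppa and from -0.61 to 0.69 for Sbk3.

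Across the 4 groups, the order of medians for Myl4 was vehicle heart (280 TPM), D + Q TA (57.9), vehicle TA (41.3) and D + Q heart (3.96), and only the last step had no overlap. For Sln it was vehicle heart (31.2 TPM), vehicle TA (4.99), D + Q TA (3.33) and D + Q heart (0.176), again with no overlap only at the last step. Myl7 ran from 412 TPM in vehicle hearts to 3.995 in D + Q hearts, with TA at 0. Nppa ran from vehicle heart (978 TPM) and D + Q heart (418) to D + Q TA (0.647) and vehicle TA (0.304), and the TA groups overlapped. Mybphl ran from 23.5 TPM in vehicle hearts to 0.183 in D + Q hearts, which overlapped vehicle TA (0.0921). Sbk3 ran from 20.03 TPM in vehicle hearts and 1.05 in D + Q hearts to 0.456 in D + Q TA and 0.366 in vehicle TA.

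Between vehicle tissues, 4 of the 6 members (Myl7, Nppa, Mybphl and Sbk3) had every heart above every TA library. The same held for 15.3% of the 16893 genes that reached 0.5 TPM in at least 3 vehicle libraries, both tissues pooled. In D + Q mice, Myl4 and Sln had every heart below every TA library, as did 27.4% of those genes. Sbk2 ran against its neighbour Sbk3, at 32.0 to 69.5 TPM over the 8 TA libraries and 2.34 to 16.5 TPM over the 7 hearts.

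Myl4 made up 0.473% to 1.302% of the summed TPM of the essential light chain genes Myl4, Myl3 and Myl1 in vehicle TA and 0.485% to 1.23% in D + Q TA. Its level varied with some genes of muscle regeneration. The 5 genes with the highest Pearson's r with Myl4 over the 8 TA libraries, among 2220 tested genes with a standard deviation of at least 0.5, were 2310020H05Rik (0.957), Mymk (0.948), Myh3 (0.945), Tnnt2 (0.927) and Gm44717 (0.868). Mymk encodes the myoblast fusion factor myomaker, Myh3 the embryonic myosin heavy chain and Tnnt2 cardiac troponin T. Myh3 was at 9.58, 9.06, 4.42 and 42.9 TPM in vehicle TA and at 24.9, 8.06, 28.1 and 10.2 TPM in D + Q TA. Both Myl4 and Myh3 had their 3 highest levels in vehicle replicate 4 and D + Q replicates 1 and 3. Not every regeneration gene followed Myl4. Myod1 had its lowest TA level, 25.3 TPM, in vehicle replicate 4, where Myl4 was at 74.1 TPM. Its highest, 83.8 TPM, was in D + Q replicate 4, where Myl4 was at 46.6 TPM.

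Against the mean of a list of 10 regeneration genes, Myl4 had r = 0.86 (two-sided exact permutation p = 0.0061, adjusted over 4 relations 0.0244) and Spearman's rho = 0.88 (exact permutation p = 0.00724, adjusted 0.0290, n = 8). Without the 2 libraries farthest from the median of the list, r was 0.80 (exact permutation p = 0.0472, n = 6), and in the 6 males alone it was 0.90 (exact permutation p = 0.0292). Against 7 slow-fibre genes Myl4 had r = 0.26 (exact permutation p = 0.522) and rho = 0.52 (exact permutation p = 0.197).

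Sln had r = 0.80 with the slow-fibre list (exact permutation p = 0.0167, adjusted 0.0334, n = 8) and rho = 0.81 (exact permutation p = 0.0218, adjusted 0.0436). Without the 2 farthest libraries, both vehicle females, r was 0.62 (exact permutation p = 0.174, n = 6), so r stayed positive but passing the test depended on those libraries. With the regeneration list Sln had r = 0.58 (exact permutation p = 0.127) and rho = 0.76 (exact permutation p = 0.0368, adjusted 0.0490), and in the 6 males alone r was 0.31 (exact permutation p = 0.533). The genes most like Sln were Rab15 (0.951), the matrix genes Mgp (0.948) and Postn (0.940), Ptx4 (0.938) and Peg10 (0.929).

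**Figure D5:**
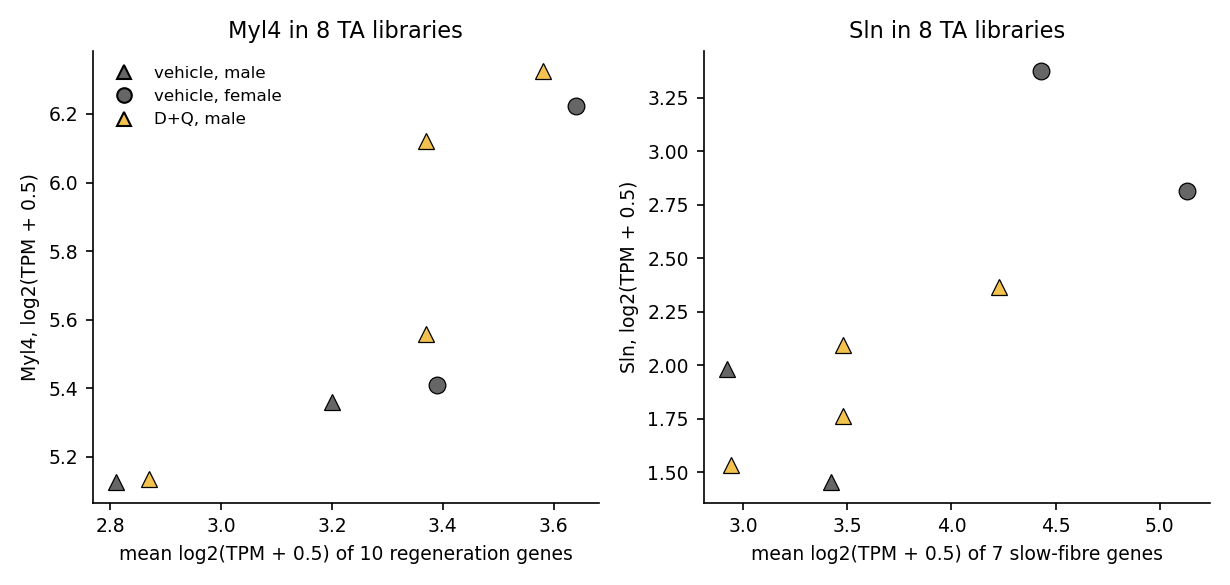
Myl4 against the mean of 10 regeneration genes (left) and Sln against the mean of 7 slow-fibre genes (right) in the 8 TA libraries, all in log2(TPM + 0.5); grey is vehicle, yellow is D + Q, circles are females and triangles males. Myl4 rises with the regeneration mean in both groups, and the 2 highest Sln points are the vehicle females.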

How the data were processed

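RNA of 15 libraries, each labelled as a separate sample, was analysed (4 TA and 3 heart with D + Q, 4 TA and 4 heart with vehicle). The authors trimmed the reads (Trim Galore 0.6.10), ran Salmon 1.10.3 on GRCm39, collapsed transcripts to genes by tximport, and the TPM values they deposited cover 56980 genes, of which 56236 identifiers were found in GENCODE M39. TPM keeps no depth, so precision comes only from the spread between samples, and the count test of the authors was not run.

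Genes reaching 0.5 TPM in 3 or more libraries of a tissue were fitted as log2(TPM + 0.5) with limma 3.58.1 (lmFit, eBayes with trend, R 4.3.3). A fold change on this scale understates changes of low genes. The heart model held labelled sex and the TA model 1 surrogate variable, estimated in 5 rounds, after the design of the authors. The heart fold changes and p-values therefore use a label that expression contradicts for D + Q replicate 3. All 3 D + Q hearts but only 2 vehicle hearts expressed Xist, so expressed sex and treatment were partly confounded in heart. Adjustment followed Benjamini and Hochberg over all genes tested. A call needed both an adjusted p-value under 0.05 and a log2 fold change beyond 0.5 in size. The code was tested on simulated data.

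The members and gene lists were chosen with earlier results of these data known. Named genes are the members, Myl2 and Myl3, any gene of a list of 8 or fewer, up to 6 of a longer list (called genes, then by size of change), the 10 genes most like the mean of the members in heart and the 5 most like Myl4 and Sln in TA. Cacna1d, Kcna5, Kcnj5, Tbx5, Myh6 and the antisense genes fall outside this rule and were chosen with their values in view. Promoters were taken from RefSeq (GRCm38.p6). Other pseudocounts, filters, scaling, covariates, a replicate block and leaving out each library were tried.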

Additional observations from a re-analysis of the deposited data

Results flagged for a closer look

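Single libraries were examined in the 68 groups of 4 formed by the members, Myl2, Myl3 and the other atrial genes, and 9 had a sample whose gap to its nearest neighbour, as a share of the group's range, was above Dixon's 95% critical value, where chance flags about 1 in 20 groups. None was a member. Among vehicle hearts, Myl3 stood apart in replicate 2, at 2381 TPM with the next heart at 2850 TPM, in the heart where all 6 members were highest. In vehicle TA, Sbk2 was at 32.0 TPM in replicate 3 with the next at 67.5 TPM, and Tbx5 was at 0.164 TPM in the same library. Vehicle TA replicate 2 stood apart for Kcna5, at 9.49 TPM, and for Dkk3, at 3.05 TPM. In D + Q TA, Gja5 was at 3.30 TPM and Kcnj5 at 0.0124 TPM in replicate 4, and Fgf12 was at 1.11 TPM and Bmp10 at 0.00694 TPM in replicate 1, where the other 3 libraries listed Bmp10 at 0.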

How the results depend on the processing

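The difference of the member mean in heart, -4.47, was -5.01 and -4.11 with pseudocounts of 0.1 and 1 and -4.48 after median-of-ratios rescaling, and ran from -4.99 to -4.05 when each heart was left out. Calls over all genes in heart, 17 higher and 34 lower, depended on the settings: 11 higher with rescaling, 0 and 0 without the filter (1805 and 1926 at an unadjusted p under 0.05), 2 and 11 without the trend, and 3 and 22 with sex read from expression. Leaving out 1 heart gave 0 to 64 higher and 0 to 72 lower, the extremes being without vehicle replicates 2 and 3. The 1 atrial list gene called lower became 0 without the filter, without the trend and without a covariate, 3 with sex read from expression, and 0 to 3 when each heart was left out, while 13 to 15 of the 16 genes were negative throughout and 9 to 11, or 7 without a covariate, had an unadjusted p under 0.05. The counts of negative and non-overlapping list genes across settings were added after seeing the data; those without overlap, 4, became 7 with rescaling and 8 without vehicle replicate 1. Kcnj5, 0.01, turned to -0.04 with sex read from expression and ran from -0.03 to 0.06 over the left-out hearts. In TA, leaving out 1 library gave 0 to 1 gene higher and 0 to 1 lower. Sln in TA turned to 0.22 with labelled sex and ran from -0.79 to 0.24 over the left-out libraries, and Sbk3 in TA from -0.21 to 0.54. The cause of these shifts was not tested.

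Replicate numbers are shared between groups, and the labels give no pairing of the samples. Deviations of same-numbered libraries from their group means correlated from -0.04 to 0.03 in heart and from -0.30 to 0.04 in TA, and 0 of 7 D + Q libraries correlated best with their own number. So few pairs cannot exclude a pairing. With the replicate block in place of the covariate, heart calls were 0 higher and 4 lower, 0 atrial list genes were called (9 lower at an unadjusted p under 0.05), and TA calls stayed at 0, with Myl4 at 0.25 and Sln at -0.47.

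TPM limits what can be said of low values: Sln, Mybphl and Sbk3 in D + Q hearts and Nppa, Mybphl and Sbk3 in TA are under or near 1 TPM, with an unknown number of reads behind them.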
